A study of Oryza sativa with 20 samples.

Results

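The transcripts described here were higher in dexamethasone-treated than in mock-treated rice stem bases 8 h after CRL1 was switched on, with only a small mean difference at 4 h. CRL1 (crown rootless 1) encodes a LOB-domain transcription factor needed to form crown roots, the shoot-borne roots that make up most of a rice root system. Their primordia start in the ground tissue at the stem base, where auxin signalling acts through CRL1. A gene that responds only hours after such a regulator is switched on may be reached directly or through other factors, and expression values alone cannot tell these apart.

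Members were chosen by their values. For each line and time, d was the log2 of the dexamethasone signal plus 1.7 minus the log2 of the mock signal plus 1.7, so a d of 1 is about a doubling for a transcript well above the offset. A probe set, the group of probes that reads 1 transcript, was a member if d was 1 or more in all 3 DEX::CRL1 lines at 8 h and the mean d of these lines at 4 h was under 0.5. It also needed a d under 0.7 in both control lines at 8 h and a mean signal of 50 or more in the induced DEX::CRL1 lines at 8 h. Of 57258 probe sets other than array controls, 678 met the first condition (1.18%). The condition at 4 h left 246 of these, the one on control lines 172, and the one on signal 78. Another 5 (GLU5, RFC1, MCM5, EXP16 and GH3.4) were set aside because they belong to gene families excluded by name. The remaining 73 probe sets are the late-induced members.

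The samples came from seedlings of the cultivar Taichung 65, all carrying the crl1 mutation. In 3 DEX::CRL1 lines, each from its own transformation event, the plasmid pINDEX2-CRL1 places CRL1 under a dexamethasone-inducible system, and the lines had been selected because dexamethasone turned CRL1 on and restored crown roots. Of the 2 control lines, control line 1 was the untransformed mutant and control line 2 carried the empty pINDEX2 plasmid. Seedlings were moved to liquid medium at 7 days and treated the next day with 10 µM dexamethasone or with ethanol as mock, and stem bases were taken 4 h and 8 h later. Each of the 20 arrays held RNA pooled from 20 stem bases of 1 line, so the DEX::CRL1 groups had 3 arrays and the control groups 2. Lines are the replicates, and no group repeats a line. A stem base holds many cell types, and more cells of a type cannot be told apart from more RNA per cell.

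Across the arrays the median signal was 10.1 to 15.5 and the trimmed mean was 100 on every one, because the authors had scaled them. The number of arrays limits the precision. Arrays of control line 1 deviated together from their groups' means, and so did those of control line 2 (r of 0.45 to 0.62 across probe sets, which are not independent replicates; with only these 2 lines the deviations mirror each other). For the DEX::CRL1 lines that range was -0.05 to 0.22. CRL1 itself could not be matched by name to any probe set, so its induction was not measured here.

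Among the 73 members, 51 were paired with exactly 1 gene each (51 different genes), 1 with several genes and 21 with no listed gene. Just 4 of these genes carry a symbol: IRL2, JAZ11, ACC2 and ACA5. The other 47 are given by locus number, with no role assigned. The name of 7 probe sets ends in _x_at, of 8 in _s_at and of 3 in _a_at, which mark probes that can pair with more than 1 transcript. All 73 passed the filter on dim probe sets that was used for tests, as did 32836 of all 57258. That filter needs a signal above the array median on at least 3 arrays. The 3 induced arrays at 8 h, where members were chosen for their signal, met it for all 73.

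IRL2 (LOC4329845) encodes an intracellular leucine-rich repeat protein, of a plant class related to Ras-group leucine-rich repeat proteins. Its signal at 8 h was 106.3, 210.3 and 102.6 in induced DEX::CRL1 lines 1, 2 and 3, against 13, 11.8 and 15.5 in the same lines under mock treatment. In the control lines at 8 h it was 23.3 and 7.6 with dexamethasone and 23.0 and 12.9 with mock. All 3 induced arrays lay above the other 17, and the mean d was 3.15 ± 0.73 (SD, 3 lines). At 4 h the lines split: d was 0.38, 1.22 and -0.49, so line 2 already stood higher and line 3 lower.

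JAZ11 (LOC4331833; also TIFY11C) encodes a member of the JAZ proteins, which hold back jasmonate-responsive transcription until the hormone triggers their breakdown. At 8 h its signal was 170.2, 378.6 and 416.4 in the induced DEX::CRL1 lines, against 62.9, 83.4 and 82.1 with mock. The control lines had 160.5 and 125.1 with dexamethasone and 107.8 and 134.3 with mock. The induced values of lines 2 and 3 lay above every other array, whereas that of line 1 was under the 180.5 of dexamethasone-treated control line 1 at 4 h. The mean d was 1.96 ± 0.48 (SD, 3 lines) at 8 h. At 4 h d was -1.26, 0.73 and 0.37, so line 1 ran against the others.

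ACC2 (LOC4338322) encodes an acetyl-CoA carboxylase, the enzyme that makes malonyl-CoA for fatty acid synthesis; the annotation uses the same name for an ethylene-synthesis gene, ACS2, at another locus. Its signal at 8 h was 4175.7, 6415.4 and 4575.8 in the induced lines, against 1573.5, 1853.4 and 1437.9 with mock. The control lines at 8 h had 1428.0 and 1676.9 with dexamethasone and 1571.9 and 1520.8 with mock. Induced arrays were above all the others, and the mean d against mock in the same lines was 1.62 ± 0.20 (SD, 3 lines). At 4 h it had 2651.5, 2641.4 and 1742.9 with dexamethasone against 1526.3, 1909.3 and 1703.1 with mock. Lines 1 and 2 were therefore partly up at 4 h, with d of 0.80 and 0.47, while line 3 was level at 0.03.

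ACA5 (LOC4336912; also ACA6) encodes an autoinhibited calcium pump, a class that moves calcium out of the cytosol. Its signal at 8 h was 367.1, 675.1 and 359.4 in the induced lines, against 157.0, 205.9 and 162.5 with mock. In the control lines at 8 h it was 103.1 and 215.5 with dexamethasone and 142.2 and 154.5 with mock. The induced arrays stood above the other 17, with a mean d of 1.35 ± 0.31 (SD, 3 lines). ACA5 was the only one of these 4 named genes with d below 0 in all 3 DEX::CRL1 lines at 4 h (-0.15, -0.06 and -0.34).

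**Figure D1:**
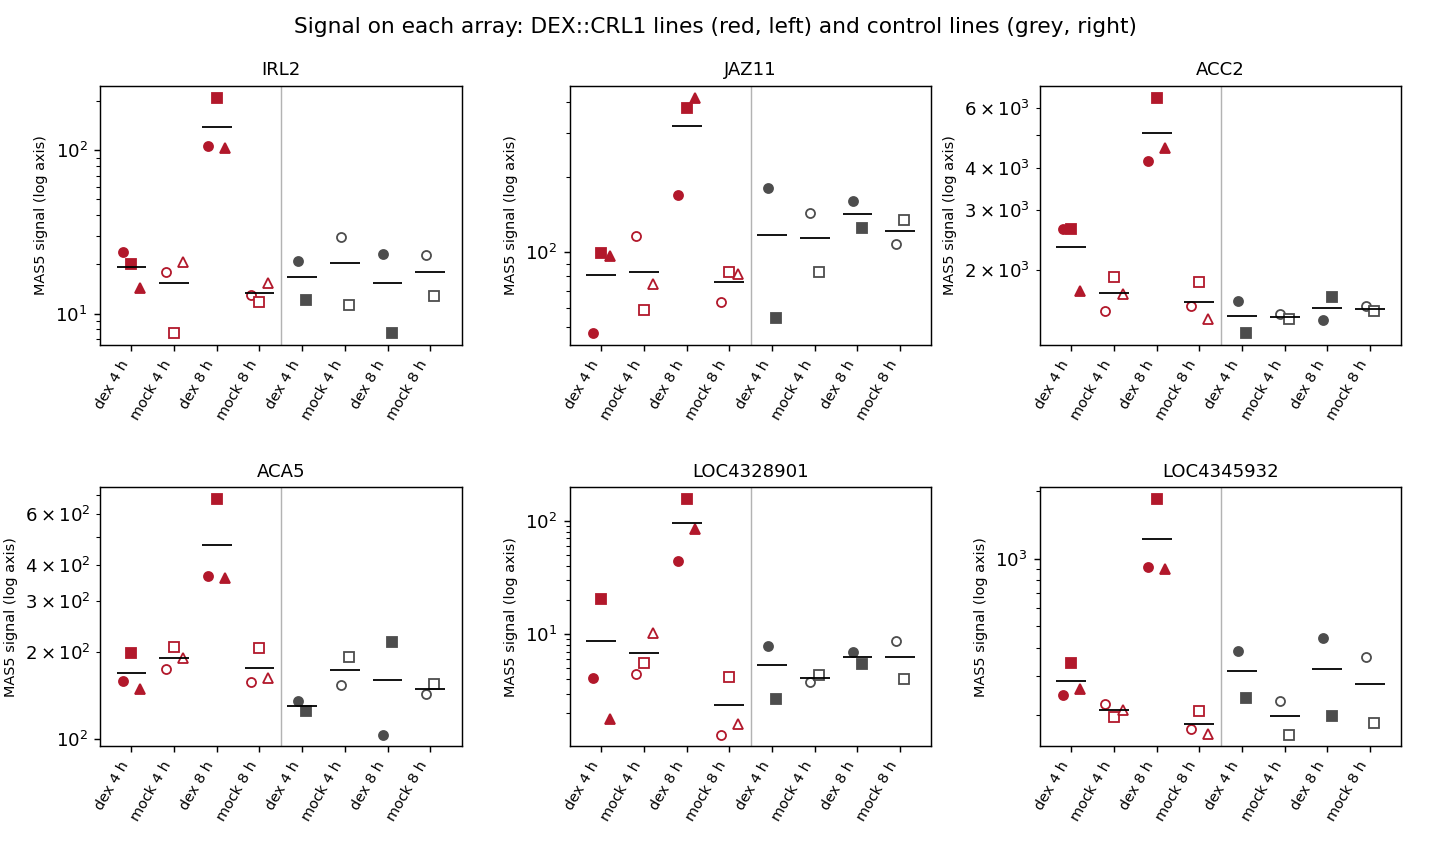
MAS5 signal (log axis, scaled separately per gene) on each of the 20 arrays for 6 members; circles, squares and triangles are lines 1, 2 and 3, filled symbols dexamethasone, open symbols mock, and bars group means. In each panel the mean of the induced DEX::CRL1 lines at 8 h is the highest of the 8 groups; for JAZ11 the line 1 value (170.2) overlaps the control arrays.

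Among members without a gene name, LOC4328901 had the largest mean d at 8 h, 4.46 ± 0.46 (SD, 3 lines). Its signal was 43.9, 155.3 and 85.3 in the induced lines, against 1.3, 4.2 and 1.6 with mock. The mock values were under the median of their arrays on all 3, so the size of d depends on the offset. Next came LOC4325432, with 166.7, 388.3 and 194.1 in the induced lines against 15.9, 32.4 and 14.5 with mock, and a mean d of 3.46 ± 0.18 (SD, 3 lines). The 3 lines differed less for LOC4325432 than for LOC4328901.

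Some members differed far more between lines. For LOC4324430 the signals were 122.3, 98.4 and 321.4 in the induced lines, against 26.7, 32.9 and 12.5 with mock, which gave d of 2.13, 1.53 and 4.51. Line 3 stood far above the other lines, and the mean of 2.72 ± 1.57 (SD, 3 lines) had the widest spread of the 73 members. LOC4332309 had 639.3, 795.2 and 440.2 in the induced lines against 61.4, 53.9 and 126.2 with mock, with the lowest d in line 3 (1.79). At the other end, LOC4328993 had d of 1.05, 1.03 and 1.06.

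LOC4345932 had signals of 914.6, 1843.6 and 895.6 in the induced lines at 8 h, against 172.9, 208.3 and 164.3 with mock. Its mean d was 2.65 ± 0.42 (SD, 3 lines), and its induced arrays exceeded the control lines, which had 440.9 and 198.5 with dexamethasone and 364.6 and 183.3 with mock. LOC4334838 had 1255.0, 3166.6 and 1748.8 against 496.0, 376.7 and 248.9, a mean d of 2.40 ± 0.93. LOC4332737, LOC4341876 and LOC4328275 had mean d of 2.35 ± 0.62, 2.32 ± 0.27 and 2.17 ± 0.38. For LOC4332737 the groups overlapped, since line 3 reached only 51.5 when induced while line 1 had 61.3 at 4 h with dexamethasone.

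The other members named for a high signal had mean d under 2. LOC4325476 had 1247.5, 2113.1 and 1363.5 in the induced lines, against 609.9, 613.6 and 531.9 with mock (mean d 1.39 ± 0.38). LOC4341820 had 1109.4, 1308.0 and 627.6 against 351.2, 276.8 and 292.1 (1.66 ± 0.57), and LOC4347473 had 734.5, 1289.5 and 787.6 against 331.4, 337.1 and 352.9 (1.41 ± 0.45). LOC4347830 and LOC4334479 had mean d of 1.98 ± 0.64 and 1.16 ± 0.16. In all 5 the lowest induced array lay above the other 17.

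Over the whole set the mean d at 8 h ran from 1.05 to 4.46 with a median of 1.61, and 16 members had 2 or more. The lowest induced array lay above the 9 other DEX::CRL1 arrays for 68 members, and above all 17 other arrays for 58, against 2.87% and 1.69% of all probe sets. Since the members were chosen for this difference, these counts only describe them. Mean signals of the induced lines at 8 h ran from 55 to 5056, against 2.37 to 1622 with mock. Under mock treatment 70 members were above the array median in all 3 DEX::CRL1 lines at 8 h. The limit on induced signal favours this, since array medians were low. The members' median mock signal there was 60.9, beside 75.4 over all tested probe sets.

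DEX::CRL1 line 2 gave the largest response most often. Its d at 8 h was the highest of the 3 lines for 55 of 73 members, against 50.7% of the 678 probe sets that met the first condition. The median d over members at 8 h was 1.37 in line 1, 1.93 in line 2 and 1.45 in line 3. Line 2 was also ahead at 4 h, with a median d of 0.51, whereas lines 1 and 3 had 0.31 and 0.02. How strongly CRL1 itself was expressed in each line was not measured here.

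**Figure D2:**
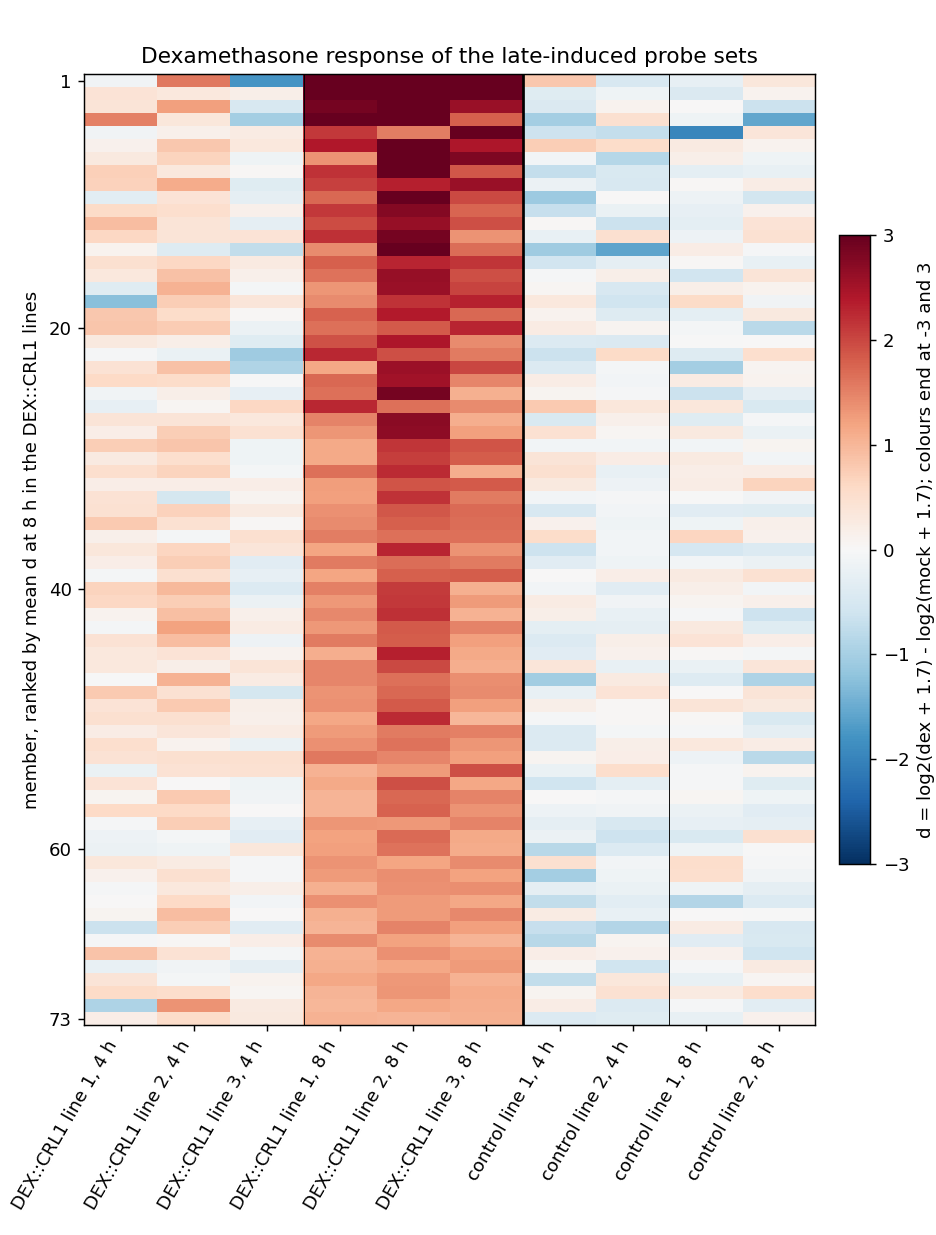
Dexamethasone response d (log2 scale, red higher and blue lower than mock) of the 73 members, ranked down the page by mean d at 8 h, in each DEX::CRL1 line and each control line at 4 h and 8 h. The block of the DEX::CRL1 lines at 8 h is red throughout, as the rule requires; at 4 h lines 1 and 2 are mostly pale red, with median d of 0.31 and 0.51, and line 3 is near 0.02.

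Expression at 4 h was not flat. The mean d of the DEX::CRL1 lines at 4 h was above 0 for 63 of the 73 members, against 42.2% of the tested probe sets whose mean was also under 0.5, and 25 members were above 0 in all 3 lines. The median of that mean was 0.28 and the highest 0.48 (LOC4341876), just inside the limit. A single line reached a d of 1 or more at 4 h for 8 members, 7 of them in line 2. These are values of the rule's own contrast and carry no test. For the counts of 25 and 8 no share over all probe sets was taken, so they only describe the members.

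The label of an 8 h response rested in part on line 3. With the mean at 4 h taken over lines 1 and 2 alone, 29 of the 73 members were at 0.5 or more and would not have been chosen. Those 29 included IRL2, ACC2, LOC4328901 and LOC4332309. Without line 1, 9 members passed that limit (JAZ11 and LOC4345932 among them), and without line 2 only 1 did. For LOC4328901 the lines at 4 h went different ways, with d of -0.10 in line 1, 1.59 in line 2 and -1.78 in line 3. Its signals there were low, at 4.1, 20.3 and 1.8 with dexamethasone against 4.5, 5.6 and 10.3 with mock. The size of these d values therefore depends on the offset.

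The thresholds themselves fell in a continuous range of values. For the smallest d among the 3 lines at 8 h, LOC4337457 was just inside at 1.01 and LOC4346168 just outside at 0.999. For the mean d at 4 h the nearest probe set outside had 0.505. For the control lines LOC4324900 was just inside with a highest d of 0.67 and LOC4334630 just outside at 0.72. For signal the nearest values were 55 inside and 47.1 outside.

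A larger d at 8 h than at 4 h can come from a higher level under dexamethasone or a lower one under mock. In the DEX::CRL1 lines the level under dexamethasone was higher at 8 h than at 4 h in all 3 lines for 72 members, against 22.5% of tested probe sets. The exception was LOC4337457, whose line 2 had 78.7 at both times. The median change of the 73 members from 4 h to 8 h was 1.32 with dexamethasone and -0.07 with mock on the log2 scale, beside 0.02 and 0.04 over all tested probe sets. The gain under dexamethasone was larger than the drop under mock for 71 members. The rule used d at both times and the induced signal at 8 h, so these counts and shares, and those on mock levels, only describe the members.

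The 2 others were LOC4328476 and LOC4333430. For LOC4328476 the dexamethasone signal was 799.8, 765.9 and 695.9 at 8 h, against 652.3, 679.7 and 640.2 at 4 h. Its mock signal was 264.1, 278.6 and 296.7 at 8 h, against 479.6, 483.3 and 456.5 at 4 h. Both changes were the same way in all 3 lines, and the lower mock level made the larger part of the gain in d. LOC4333430 had mean log2 changes from 4 h to 8 h of 0.59 with dexamethasone and -0.72 with mock. Over the whole set, mock levels were lower at 8 h in all 3 lines for 19 of the 73 members, against 10.4% of tested probe sets.

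**Figure D3:**
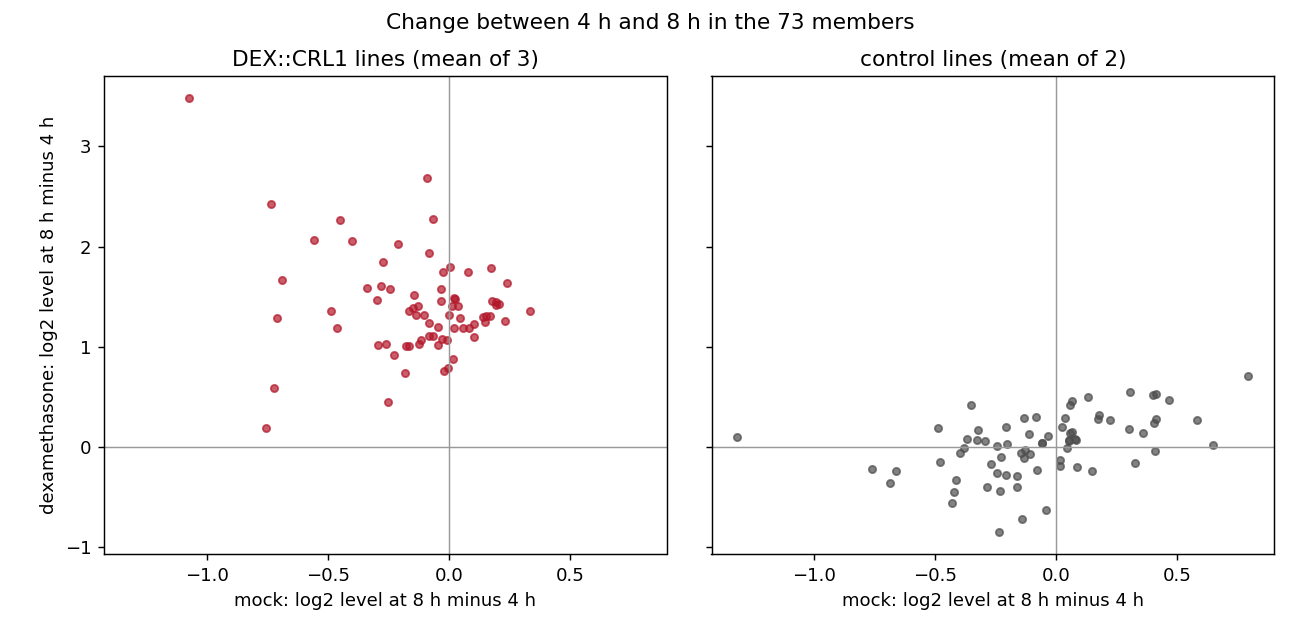
Change in log2 level from 4 h to 8 h for each of the 73 members (points), under mock (horizontal axis) and under dexamethasone (vertical axis), as the mean of the 3 DEX::CRL1 lines (left) and of the 2 control lines (right). In the DEX::CRL1 lines every point lies above 0 on the vertical axis, and their median is 1.32; the points of the control lines spread around 0, and their medians are 0.04 with dexamethasone and -0.08 with mock.

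Control lines at 4 h gave the one dexamethasone response that the choice of members did not use. limma called 0 of the 73 members there after Benjamini-Hochberg adjustment over all tested probe sets, and 0.0% of all tested probe sets in either direction. At an unadjusted p under 0.05 the counts were 0 members and 781 of all (2.38%). Over members the log2 difference between dexamethasone and mock had a median of -0.14, beside 0.00 over all tested probe sets, and ran from -1.34 to 0.64 with a median SE of 0.35. It was above 0 for 24 members, or 32.9%, against 50.8% of all. Both control lines were below 0 for 28 of the 73 members, against 25.8% of all, and both above 0 for 10 of the 73, against 27.7%. With line as a block limma again called 0 members, but 6 members and 1563 of all had an unadjusted p under 0.05. This was a larger share of the members than of all, and the difference in share was not tested.

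For the members with a symbol, none of the differences in the control lines at 4 h passed the test. The log2 difference was -0.17 ± 0.55 for IRL2, -0.14 ± 0.52 for JAZ11, -0.0006 ± 0.22 for ACC2 and -0.40 ± 0.31 for ACA5 (SE, 2 lines). The highest was LOC4345932 at 0.64 ± 0.40, with 387.6 and 239.0 on dexamethasone arrays against 231.9 and 163.3 on mock arrays. Both lines were higher with dexamethasone for this member, but the difference did not pass the test. A change of 1 could often be missed here: in simulated arrays of this comparison 33% of log2 changes of 1 and 70% of log2 changes of 2 were recovered. The simulated arrays varied independently, whereas real arrays of a control line deviated together, so these shares may differ for the real comparison.

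Time without CRL1 was tested as the mean of both treatments at 8 h against that at 4 h in the control lines, which is independent of the dexamethasone difference the rule used. limma called 0 members and 0.0% of all tested probe sets in either direction. At an unadjusted p under 0.05 there were 5 members (6.85%) and 1692 of all (5.15%). With line as a block these were 11 members and 2858 of all, a larger share of the members, and limma called 0 members. That difference in share was not tested. The median log2 change of the members was -0.05, beside 0.00 over all, from -0.61 to 0.75. In simulated arrays of this comparison, which again varied independently, 41% of log2 changes of 1 and 83% of log2 changes of 2 were recovered.

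LOC4328476 again stood out among these. Its control signals at 8 h were 550.2 and 238.1 with dexamethasone and 612.4 and 415.0 with mock, against 596.3 and 717.9 with dexamethasone and 561.8 and 629.5 with mock at 4 h. The empty-vector line was lower at 8 h under both treatments and the untransformed line was not under mock. The log2 change was -0.54 ± 0.19 (SE, 2 lines; adjusted p = 0.918, limma), and without control line 1 it was -1.09 with an adjusted p of 0.00147. That fit has 1 array in each control group, so its p takes the spread from the DEX::CRL1 lines and assumes that the empty-vector line varies as they do. Over all tested probe sets that fit called 22 higher and 15 lower, in place of 0.

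**Figure D4:**
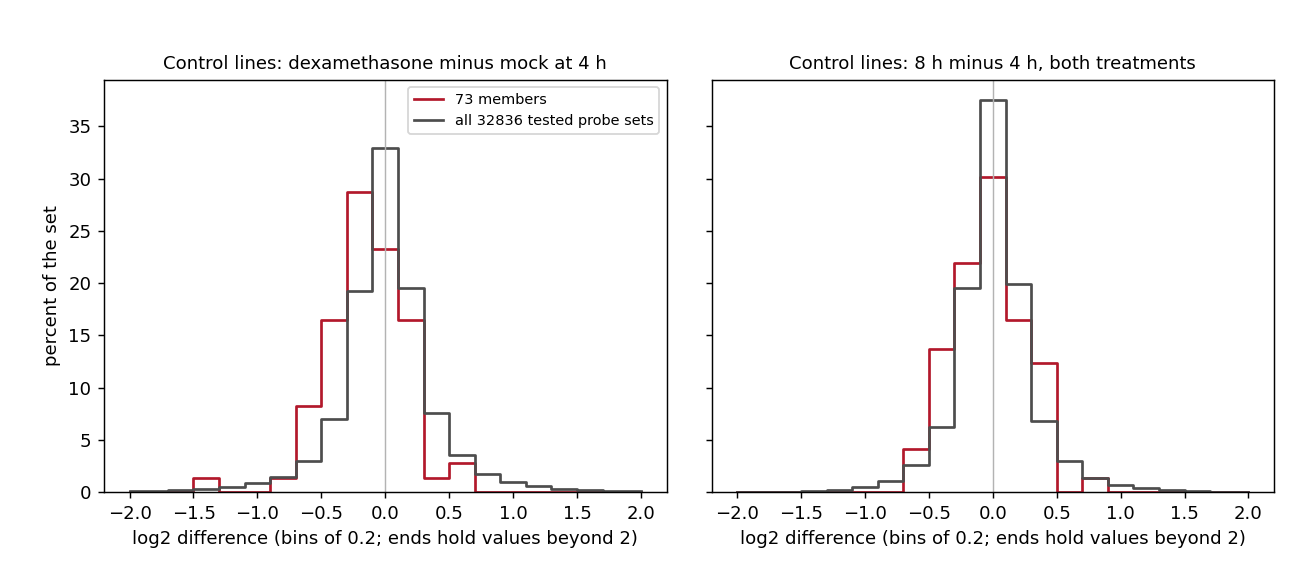
Percent of the 73 members (red) and of all tested probe sets (grey) in bins of the log2 difference in the control lines: dexamethasone minus mock at 4 h (left) and 8 h minus 4 h over both treatments (right). The members centre at -0.14 on the left and at -0.05 on the right, and all tested probe sets at 0.00 in both.

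A further 65 probe sets met the same conditions except that d was 1 or more in all 3 DEX::CRL1 lines at 4 h as well. In the control lines at 4 h the median log2 difference of these early probe sets was 0.07, against -0.14 for the late members, and over time it was -0.14 against -0.05. Those differences between the sets were not tested.

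Other probe sets of the same genes gave a partial check on different probes, from the same RNA. Of the members' genes 9 had 1 or more further probe sets, 11 in all, and 7 of these passed the filter on dim values. In 8 of the 11, d at 8 h was above 0 in all 3 DEX::CRL1 lines, against 16.2% of all probe sets, but 0 of the 11 reached a d of 1 in every line. The limit on control lines was exceeded in 4 of them, and the limit on the mean d at 4 h in 2, those of LOC4341876 (0.82) and LOC4334479 (0.65). Apart from the brighter further probe sets of LOC4325188 and LOC4337457, mean induced signals of the 11 at 8 h ran from 3.47 to 27.0. The genes were chosen on this contrast in the same RNA, so the count of 8 only describes them. LOC4325188 had another probe set with mean signals of 1685 induced and 669.4 with mock and a mean d of 1.21, beside 1.57 for the member. LOC4337457 had probe sets that disagreed in sign: its member probe set is an _x_at set with a mean d of 1.09, whereas another probe set of that gene had mean signals of 734.4 induced and 767.4 with mock and a mean d of -0.06. That member is therefore uncertain as a gene.

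LOC4325186 and LOC4325188 are next to each other in the RefSeq gene order, with no protein-coding gene between them. LOC4325186 had 249.2, 256.6 and 242.5 in the induced lines at 8 h, against 84.1, 78.7 and 81.2 with mock. LOC4325188 had 491.4, 667.2 and 270.5 against 169.9, 153.4 and 128.2. The pair had mean d of 1.60 ± 0.08 and 1.57 ± 0.52 (SD, 3 lines), with lines nearly equal in the first and ordered 2, 1, 3 in the second. Another pair, LOC9266097 and LOC4347830, had 2 genes between them.

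Other genes of the named members' families were counted at 8 h. Of 11 other JAZ genes measured, limma called 1 higher and none lower at 8 h in the DEX::CRL1 lines, where 3.47% of tested probe sets were called higher and 2.91% lower. It was JAZ6, with a log2 difference of 0.45 ± 0.13 (SE, 3 lines; adjusted p = 0.0469, limma), and it lost the call without any 1 of the DEX::CRL1 lines (adjusted p of 0.174 to 0.346), with no filter (0.0733) and with quantile normalization (0.0537). JAZ8 stood at 1.23 ± 0.56 without passing. At 4 h none of the 11 was called in either direction (0.414% and 0.0213% of all tested probe sets), and their median was -0.30.

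Of 7 other IRL genes, 1 was called lower at 8 h and none higher. IRL6 had a log2 difference of -0.61 ± 0.16 (SE, 3 lines; adjusted p = 0.0328, limma), opposite in sign to IRL2. It too lost the call without any 1 of the DEX::CRL1 lines (adjusted p of 0.184 to 0.312). The 3 other ACA calcium pump genes, ACA7, ACA8 and ACA10, stood at 0.56 ± 0.44, -0.22 ± 0.18 and 0.11 ± 0.10, and none was called. No test compared these relatives with the members, which were chosen for their response.

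Wider lists of genes outside the members were also counted at 8 h in the DEX::CRL1 lines. Over these lists and the relatives, 277 genes were measured and limma called 12 higher (4.33%) and 21 lower (7.58%), against 3.47% and 2.91% of all tested probe sets. The 2 sets of shares are not alike. The lists hold the brightest probe set of each gene and leave out members' genes, whereas all tested probe sets include members and dimmer sets. At 4 h it called 0, with 22 (7.94%) at an unadjusted p under 0.05, against 6.16% of all. Of 26 water channel genes none was called higher and 2 lower (PIP2;5 and PIP2;2), of 46 tubulin, kinesin and cell-cycle inhibitor (KRP) genes 4 and 4, of 79 transcription factor genes 3 and 7, of 14 sugar transporters 2 and 0, and of 56 kinases 2 and 3. Among 19 nutrient transporter genes none was called, among 8 lipid transfer and wax genes 1 was lower, among 5 auxin transport genes 1 (PIN5a) was lower, and the 1 Casparian strip gene was not called. The auxin synthesis gene FIB, which makes an auxin precursor, and 1 of 2 peroxidase genes were lower. The total of 33 calls was 14, 3 and 11 without DEX::CRL1 lines 1, 2 and 3, and 56 with line as a block.

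Tissue markers give the setting of these values. At 8 h the 3 measured markers of dividing cells (of 5 listed) summed to 829.7 to 1516 in induced DEX::CRL1 lines, against 715.7 to 790.0 with mock. Limma called 1 of them, MCM5, higher and none lower. MCM5, set aside from the members by name, averaged 660.0 induced against 224.6 with mock, whereas CYCB2;1 had 172.9 against 187.2 and CDKB2-1 293.7 against 328.9. The 3 of 4 root meristem markers summed to 251.1 to 416.9 induced and 116.6 to 145.6 with mock, with QHB called higher (261.5 induced, 21.2 with mock) and SHR1 lower (36.8 induced, 57.6 with mock), while SCR1 had 30.2 induced and 48.9 with mock. The 3 of 4 shoot meristem markers summed to 688.6 to 1047 induced and 1124 to 1331 with mock, with none called. The 4 vascular markers had 1068 to 1392 induced and 1370 to 1697 with mock, the 4 of 7 leaf markers 10915 to 11189 and 10031 to 13111, and the 4 of 7 root tissue markers 304.7 to 497.7 and 143.7 to 325.3. Among the root tissue markers limma called NAAT1 higher (310.1 induced, 59 with mock), whereas the means of CASP1, NAS1 and NAS2 were lower when induced and did not pass. In the control lines at 8 h the root tissue markers summed to 121.6 to 644.6 with dexamethasone and 578.9 to 1012 with mock. The mock sums of both control lines were thus above those of all induced DEX::CRL1 arrays at 8 h. NAAT1 averaged 115.8 with dexamethasone and 197.2 with mock in the control lines. None of the leaf and vascular markers was called. No measured marker had a mean of 0, and their part in the members' values was not tested.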

How the data were processed

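The deposited intensity values were linear MAS5 signals; per the submitters' processing notes the authors used MAS5 and Affymetrix Expression Console. The values show that each array had been scaled. The table holds 57381 probe sets, 123 of them array controls. GEO's probe annotation gave each gene number, whose current symbol was read from RefSeq (assembly ASM3414082v1): 22436 probe sets had 1 gene, 95 several and 34727 none listed. No coordinates are given, since the build behind the array design is not given in the sources used here.

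A gene was named by its symbol or, where that was a locus number, its first synonym that was no clone name. Names and synonyms were both searched for the excluded families. Members and gene lists were chosen with earlier results of these data known. Among members paired with exactly 1 gene, the text names every one with a symbol, the 10 with the largest mean d and the 10 highest signals at 8 h, the 5 highest mock signals and those nearest a threshold; LOC4328993, LOC4333430, LOC4325186, LOC4325188 and LOC9266097, and the list genes and markers named, were added after their values were seen.

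Tests used limma 3.58.1 in R 4.3.3 on log2(signal + 1.7), with an offset at the 20th percentile of signals, which understates differences of dim transcripts. The 32836 probe sets above the array median on at least 3 arrays entered one fit of 8 group means with trended empirical Bayes variance, 12 residual degrees of freedom and Benjamini-Hochberg adjustment at 0.05. The spread includes differences between lines. Each SE of a limma difference uses this spread, shared by all 20 arrays, and the lines given beside it are those compared. Each list gene was read from its brightest probe set. Mock and dexamethasone arrays of 1 line are paired by the labels; the fit with line as a block had 9 residual degrees of freedom. On simulated data, 200 of 32836 probe sets were given known changes to check the fit. Alternatives were the offset, the filter, quantile normalization, the signal limit, the arrays in the fit, the block and the loss of any 1 line. Python 3.11.15 with matplotlib 3.10.9, numpy 2.4.6 and pandas 2.3.3 made the tables and plots.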

Additional observations from a re-analysis of the deposited data

Results flagged for a closer look

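In 3 named members every DEX::CRL1 line was above mock at 4 h and both control lines were below it. The mean d of the DEX::CRL1 lines minus that of the control lines was 0.54 for LOC4325432, 0.94 for LOC4332737 and 0.53 for LOC4325476. This difference was not tested, and the values at 4 h in the DEX::CRL1 lines were part of the choice of members. Other members had the same signs, so the pattern is not particular to these 3. The share of all probe sets with it was not counted.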

How the results depend on the processing

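The number of members was 73 and stayed between 54 and 81 with another offset, quantile normalization or a signal limit of 25 or 100. Of the 73, 71 were also chosen with no offset, 70 with quantile normalization, and 56 with an offset at the median signal. With each line left out in turn the number ran from 76 to 140, where leaving out a DEX::CRL1 line changed the lines held to the limit at 8 h, those in the mean at 4 h and those in the mean signal together; 63, 71 and 44 of the 73 were among those chosen without DEX::CRL1 lines 1, 2 and 3. In the control lines 0 members were called for dexamethasone at 4 h under every alternative run. For 8 h against 4 h the count was 0 under all but one, and 0 to 1 with each line left out. With line as a replicate block both counts were 0. Calls among the other genes of the families and lists, alternatives chosen after seeing the data, numbered 33, 56 with the replicate block, and 3 to 43 with each line left out; the cause was not tested.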

Other observations

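Between the control lines, the members' levels on the log2 scale were slightly higher in the untransformed line than in the empty-vector line. The median difference at 4 h was 0.11 with dexamethasone and 0.13 with mock, beside 0.04 for all tested probe sets in both cases. At 8 h it was 0.17 with dexamethasone and 0.09 with mock, beside 0.00 and 0.10 for all. With 1 array for each, these differences have no replicate check.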
